A study of Mus musculus with 4 samples.

Results

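Transcripts of 10 genes of blood vessels were measured in quadriceps of WT and Mef2dα2 Eko mice, to ask whether the RNA of the muscle capillary bed differs between the genotypes. The genes were taken by symbol from a deposited table of 51826 rows, and each of the 10 symbols was found on its own row. There are 7 endothelial members (Pecam1, Cdh5, Kdr, Flt1, Tek, Tie1 and Vwf) and 3 ligand members (Vegfa, Vegfb and Angpt1). All 10 passed the filter on low counts, so all were tested.

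The WT mice and the Mef2dα2 Eko mice (MEF2D-alpha-2 exon knockout, bred from heterozygous parents that carry a germline CRISPR-Cas9 deletion of the muscle-specific α2 exon of Mef2d) were sedentary male littermates on the C57BL6/J background, about 20 weeks old and fed standard chow. Each genotype was represented by 2 mice with 1 polyA library per mouse, and the founder line of the sequenced mice is not given in the sources used here. Total expected counts ran from 72626757 to 85176059 per library. The counts are per gene and do not show the α2 exon, and Mef2d as a whole was at 259 and 227 CPM in WT against 252 and 241 CPM in Mef2dα2 Eko mice. CPM are counts scaled to a library total of 1e+06 reads, after TMM scaling. The tissue label fits its markers, since Myh4, the myosin heavy chain of fast glycolytic fibers, lay between 64359 and 69587 CPM in all 4 mice. Adipocyte genes set WT replicate 1 and Mef2dα2 Eko replicate 2 apart, with summed levels of 81.6 and 31.5 CPM in WT and 26.5 and 11.5 CPM in Mef2dα2 Eko mice.

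Capillaries run along muscle fibers and deliver oxygen and fuel. Their endothelial cells are joined by VE-cadherin (Cdh5) and PECAM-1 (Pecam1) and carry the VEGF receptors VEGFR2 (Kdr), the main signaling receptor, and VEGFR1 (Flt1), which also binds VEGF-B and has a soluble form that traps VEGF. The receptor Tie2 (Tek) binds the angiopoietins, of which angiopoietin-1 (Angpt1) is the activating ligand that stabilizes vessels, and Tie1 is its partner receptor. Von Willebrand factor (Vwf) is stored in endothelial cells and platelets. Muscle fibers are a main source of VEGF-A (Vegfa) in muscle, and the hypoxia factors and the coactivator PGC-1α are known to raise it.

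RefSeq promoter windows on GRCm38.p6 were available for 6 of the 10 members (Kdr, Flt1, Tek, Tie1, Vegfa with 2 starts, and Vegfb). The 250 bases before the start are shown for Flt1, Tek and Vegfa, as a VEGF receptor, the angiopoietin receptor and the VEGF ligand whose levels are compared here. They lie at chr5:147726012-147726261 on the minus strand, chr4:94739039-94739288 on the plus strand and chr17:46032378-46032627 on the minus strand, and are written 5′ to 3′ on the strand of the gene. Capitals mark matches, on either strand, to the letters AGGAAG, which hold the core of sites for ETS factors of endothelial cells, or to ACGTG, the core of the hypoxia response element.
Flt1: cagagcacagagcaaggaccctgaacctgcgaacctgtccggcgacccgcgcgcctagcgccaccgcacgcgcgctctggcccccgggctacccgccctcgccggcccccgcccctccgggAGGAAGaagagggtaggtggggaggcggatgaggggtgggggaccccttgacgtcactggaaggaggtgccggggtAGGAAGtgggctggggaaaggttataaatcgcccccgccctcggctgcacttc
Tek: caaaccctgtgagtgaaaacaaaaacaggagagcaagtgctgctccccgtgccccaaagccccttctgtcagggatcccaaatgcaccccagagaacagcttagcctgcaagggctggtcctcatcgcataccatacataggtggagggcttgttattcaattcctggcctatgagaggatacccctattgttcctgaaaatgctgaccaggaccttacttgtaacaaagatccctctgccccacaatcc
Vegfa: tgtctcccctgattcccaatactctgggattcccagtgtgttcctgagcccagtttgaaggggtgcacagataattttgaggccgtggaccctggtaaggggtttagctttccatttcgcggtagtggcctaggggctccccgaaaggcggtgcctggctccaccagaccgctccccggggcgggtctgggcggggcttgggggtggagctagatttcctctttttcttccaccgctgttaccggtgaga
The Flt1 window held the ETS letters at 129 and 53 bases before the start, while the Tek window and this Vegfa window held neither set of letters. Among the other windows, Tie1 held the ETS letters 219 bases before its start, and those of Kdr and Vegfb held neither. The second Vegfa window held ACGTG 211 bases before its start. It belongs to an internal start and lies within the gene, at chr17:46025164-46025413. Of 32851 promoter windows of this length, 29.5% held the ETS letters, 16.6% held ACGTG and 0.508% held a MEF2 site, which was in none of the members' windows.

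The levels of 6 of the 7 endothelial members overlapped between the genotypes, and those of Tie1 did not. No member of the 10 reached an adjusted p under 0.05 by the edgeR quasi-likelihood test (p adjusted by Benjamini-Hochberg), where 0.416% of the 16120 genes tested did. At an unadjusted p below 0.05 there was 1 member, Angpt1, where 11.6% of all genes were below it. Angpt1 also had an adjusted p below 0.05 with DESeq2 and with edgeR's likelihood ratio test, and no member had one with limma-voom. Fewer endothelial cells and less RNA per endothelial cell cannot be told apart in these bulk libraries, and 2 mice per genotype limit what could be detected. An exact two-sided permutation test on these mice cannot give a p below 0.333.

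**Figure D1:**
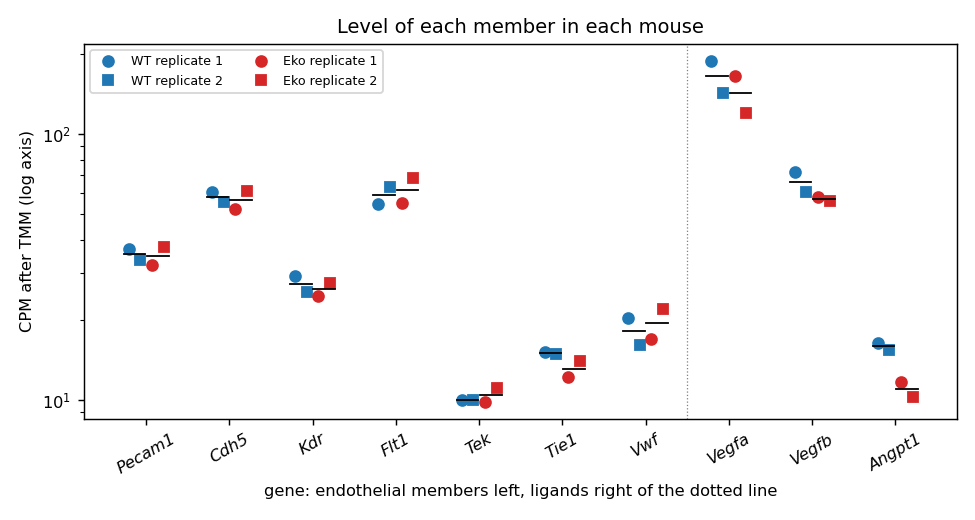
Level of each of the 10 members in each mouse, in CPM on a log axis, with WT in blue, Mef2dα2 Eko in red, circles for replicate 1, squares for replicate 2 and a black line at each genotype mean. The colors are mixed for 6 of the 7 endothelial members and for Vegfa, whereas both red points lie below both blue points for Tie1, Vegfb and Angpt1.

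Pecam1, on chromosome 11 of GRCm38 from 106654217 to 106750628, was at 37.0 and 33.6 CPM in WT against 32.1 and 37.7 CPM in Mef2dα2 Eko mice. The highest and the lowest mouse were both Mef2dα2 Eko. Its log2 fold change for Mef2dα2 Eko against WT was -0.02 (standard error, SE, 0.10; adjusted p = 0.964), and the 95% interval of the Mef2dα2 Eko level ran from 84.0% to 116% of WT. Cdh5, on chromosome 8 from 104101625 to 104144511, had the same order of mice, with 60.7 and 55.3 CPM in WT and 52.2 and 60.9 CPM in Mef2dα2 Eko mice. Its interval ran from 83.5% to 114% of WT around -0.04 on the log2 scale (SE 0.09, adjusted p = 0.916). Both junction genes thus differed less between the genotypes than between the mice of a genotype.

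The VEGF receptors lie on chromosome 5. Kdr, from 75932827 to 75978458, was at 29.2 and 25.5 CPM in WT against 24.6 and 27.6 CPM in Mef2dα2 Eko mice. The Kdr ranges overlapped, and its log2 fold change was -0.06 (SE 0.10, adjusted p = 0.847, interval 81.6% to 112% of WT). Flt1, from 147561604 to 147726011, was at 54.5 and 63.4 CPM in WT against 55.0 and 68.1 CPM in Mef2dα2 Eko mice. Replicate 2 was the higher Flt1 library in each genotype, and the log2 fold change was 0.06 (SE 0.12, adjusted p = 0.884, interval 85.6% to 127% of WT). The membrane-bound and soluble forms of Flt1 are summed in these counts. The ratio of Flt1 to Kdr counts was 1.87 and 2.49 in WT against 2.23 and 2.46 in Mef2dα2 Eko mice, which overlap.

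The angiopoietin receptors Tek and Tie1 lie on chromosome 4, from 94739289 to 94874976 and from 118471191 to 118490061. Tek was at 10.02 and 10.004 CPM in WT against 9.86 and 11.0 CPM in Mef2dα2 Eko mice, so the WT mice lay between the Mef2dα2 Eko mice. Its log2 fold change was 0.06 (SE 0.10, adjusted p = 0.856, interval 88.8% to 123% of WT). Tie1 was at 15.1 and 14.8 CPM in WT against 12.2 and 14.04 CPM in Mef2dα2 Eko mice. It was the endothelial member in which each Mef2dα2 Eko mouse was below each WT mouse, a placement that 23.0% of all genes tested had. Its log2 fold change of -0.19 (standard error 0.10) did not pass the test, with an adjusted p of 0.4999 and an interval from 74.9% to 102% of WT. This fold change was -0.08 without Mef2dα2 Eko replicate 1 and -0.29 without Mef2dα2 Eko replicate 2. The ratio of Tie1 to Tek counts was 1.51 and 1.48 in WT against 1.24 and 1.27 in Mef2dα2 Eko mice, without overlap and with no test made.

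Vwf, on chromosome 6 from 125546774 to 125686679, was at 20.4 and 16.1 CPM in WT against 17.0 and 22.0 CPM in Mef2dα2 Eko mice. It varied most among the endothelial members within a genotype, by 26.8% between the WT mice and by 29.2% between the Mef2dα2 Eko mice. The log2 fold change was 0.10 (SE 0.15, adjusted p = 0.856, interval 83.0% to 138% of WT). Platelets carry Vwf too, and Gp1ba, their adhesion receptor gene and the most abundant on the platelet list, was at 4.19, 3.80, 3.68 and 3.73 CPM in WT replicates 1 and 2 and Mef2dα2 Eko replicates 1 and 2. The summed platelet level was 5.60 and 5.24 CPM in WT and 4.93 and 4.64 CPM in Mef2dα2 Eko mice, and its part in the Vwf level was not tested. Of the 7 platelet genes, 3 had enough counts to be tested and enter the summed level, which is mostly Gp1ba. Of the rest, Gp9 had 0 to 3 counts per mouse, Treml1 had 0 to 2, and Gp6 was at 0 counts in 3 of the 4 mice. Ppbp went the other way from the summed level, with 2 and 3 counts in WT against 14 and 8 in Mef2dα2 Eko mice. How far the summed level follows platelets was not tested.

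The endothelial level of each mouse was taken as the mean log2 CPM of the 7 endothelial members, each relative to its own mean over the 4 mice. It was 104% and 97.5% of the mean over the mice in WT replicates 1 and 2, and 91.6% and 108% in Mef2dα2 Eko replicates 1 and 2. On this measure the Mef2dα2 Eko mice held both the lowest and the highest endothelial level. Relative to the fiber genes of each mouse, WT replicate 2 was lowest (-0.14 on the log2 scale, against -0.08 in Mef2dα2 Eko replicate 1). Relative to the pericyte genes, WT replicate 1 was highest (0.08, against 0.03 in Mef2dα2 Eko replicate 2). On the log2 scale the genotypes differed by -0.01, beside standard deviations of 0.06 between the WT mice and 0.17 between the Mef2dα2 Eko mice (n = 2 mice each). The summed level of the 7 genes was 227 and 219 CPM in WT and 203 and 241 CPM in Mef2dα2 Eko mice. Mef2dα2 Eko replicate 1 was the lowest mouse for 5 of the 7 genes and Mef2dα2 Eko replicate 2 the highest for 5 of the 7.

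A wider list of 26 other genes of endothelial cells in general gave levels of 99.9% and 101% in WT against 96.1% and 103% in Mef2dα2 Eko mice, in which the same Mef2dα2 Eko mice were again lowest and highest. All 26 were tested, and none had an adjusted p below 0.05, none had an unadjusted p below 0.05 with edgeR's quasi-likelihood test, and none passed with DESeq2. Their median log2 fold change was -0.01, as it was over all genes tested (-0.01). Ptprb, the endothelial receptor phosphatase that acts on Tie2, was the most abundant at 56.0 and 63.4 CPM in WT and 56.1 and 78.2 CPM in Mef2dα2 Eko mice. The list ran from Tal1, a transcription factor of blood and endothelium, with a log2 fold change of -0.37 (adjusted p = 0.614), to Clec14a, an endothelial lectin-like receptor, with 0.36 (adjusted p = 0.503).

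**Figure D2:**
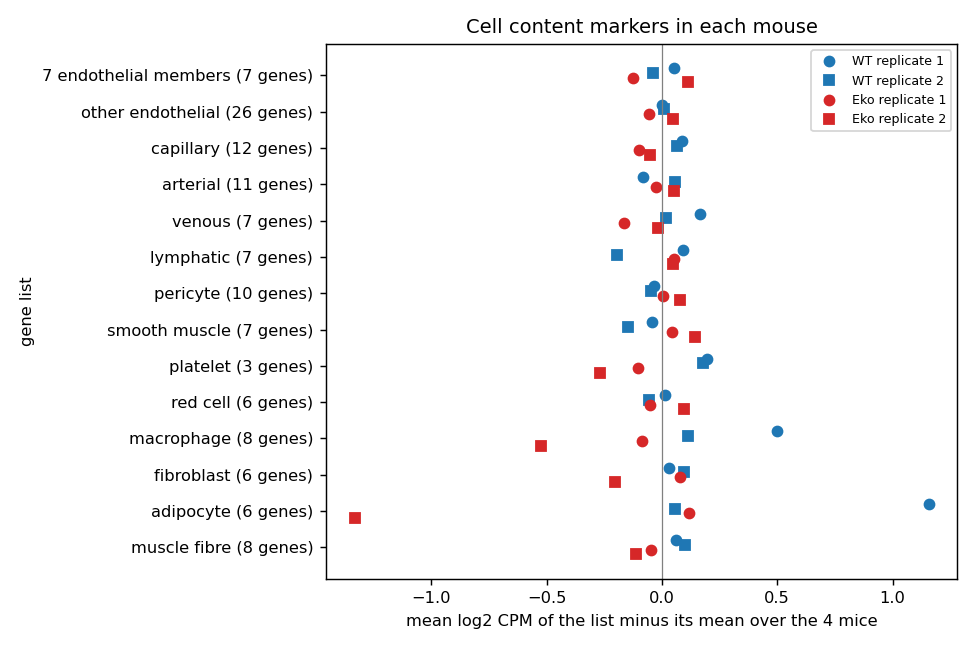
Level of 14 gene lists in each mouse, as the mean log2 CPM of the list's tested genes minus its mean over the 4 mice, with WT in blue and Mef2dα2 Eko in red. The endothelial members lie between -0.13 and 0.11, with both red points at the ends, while the adipocyte genes span -1.33 to 1.16.

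No gene of the cells that wrap vessels passed in edgeR. Levels of the 10 pericyte genes were 97.8% and 96.6% in WT against 100% and 105% in Mef2dα2 Eko mice, with a median log2 fold change of 0.15. No pericyte gene reached an adjusted p under 0.05 in edgeR's quasi-likelihood test or with DESeq2, and 2 had an unadjusted p below 0.05. The more abundant of these, Rgs5, a regulator of G protein signaling that marks pericytes, was at 220 and 210 CPM in WT and 232 and 258 CPM in Mef2dα2 Eko mice (log2 fold change 0.19, adjusted p = 0.414). The channel subunit gene Abcc9 was the most abundant pericyte gene, with 245 to 248 CPM in WT and 259 to 281 CPM in Mef2dα2 Eko mice (adjusted p = 0.532), and Kcnj8, which encodes its channel partner, had the highest log2 fold change (0.29, adjusted p = 0.488). Cox4i2 had the lowest, at -0.16 (adjusted p = 0.887). Of the 7 vascular smooth muscle genes, 0 passed in the quasi-likelihood test of edgeR, 3 had an unadjusted p below 0.05, and Lmod1, which encodes an actin nucleator, passed with DESeq2 (adjusted p = 0.0162). Lmod1 had the highest log2 fold change among them with edgeR, at 0.60 (adjusted p = 0.143), while Smtn was the most abundant and the lowest, at -0.04 (adjusted p = 0.892). The red cell genes, which follow the blood left in the muscle, had a summed level of 108 to 112 CPM in all 4 mice.

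Among the ligands, both VEGF genes had lower means in Mef2dα2 Eko mice, but neither passed the test. Vegfa, on chromosome 17 from 46016993 to 46032369, was at 188 and 143 CPM in WT against 165 and 120 CPM in Mef2dα2 Eko mice. It was the member with the widest spread within a genotype, and the genotypes overlapped. Its log2 fold change was -0.21 (SE 0.17, adjusted p = 0.686, interval 64.7% to 115% of WT), and it moved with each mouse left out, to -0.00032 without WT replicate 1, -0.39 without WT replicate 2, -0.45 without Mef2dα2 Eko replicate 1 and -0.0058 without Mef2dα2 Eko replicate 2. The counts sum the Vegfa splice forms, which differ in how firmly they bind the matrix.

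Vegfb, a ligand of VEGFR1 on chromosome 19 from 6982473 to 6987651, was at 72.0 and 60.6 CPM in WT and at 57.8 and 56.1 CPM in Mef2dα2 Eko mice. The genotypes did not overlap, but the distance from the nearer WT mouse to the Mef2dα2 Eko mice was smaller than that between the WT mice. The log2 fold change was -0.22 (SE 0.09, adjusted p = 0.436, interval 73.7% to 100% of WT), and it was -0.09 without WT replicate 1 and -0.32 without WT replicate 2 (adjusted p = 0.0972). Vegfb and Vegfa were the members with most CPM per kilobase of exon, at 38.4 and 35.9. Next in this scale came Cdh5 at 13.6, Pecam1 at 5.64, Flt1 at 4.46, Kdr at 2.96, Tie1 at 2.86, Angpt1 at 2.58, Tek at 2.17 and Vwf at 1.17 CPM per kilobase. The same order was found per kilobase of the longest coding transcript. Per kilobase of exon the ranges over the mice overlapped between the neighbors Vegfb and Vegfa, Kdr and Tie1, Tie1 and Angpt1, and Angpt1 and Tek. The other neighbors stood apart on that scale. Per kilobase of the longest coding transcript, Pecam1 and Flt1 overlapped too, as did Tek and Vwf, while Kdr and Tie1 stood apart.

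Angpt1 was the member with the largest difference between the genotypes. The gene lies on chromosome 15 from 42424723 to 42676977 on the minus strand and gave 1242 and 1250 reads in WT but 1010 and 731 in Mef2dα2 Eko mice. These are 16.4 and 15.5 CPM in WT and 11.7 and 10.2 CPM in Mef2dα2 Eko mice, so each Mef2dα2 Eko mouse was below each WT mouse by more than the mice of a genotype differed from each other. WT mice averaged 15.9 ± 0.644 CPM and Mef2dα2 Eko mice 11.0 ± 1.06 CPM (SD, n = 2 mice per genotype). In edgeR's quasi-likelihood test the log2 fold change was -0.54 (SE 0.10, unadjusted p = 0.00100), which is 69.0% of WT with an interval from 58.7% to 81.1%. After adjustment over all genes p was 0.118, so Angpt1 did not pass the threshold.

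**Figure D3:**
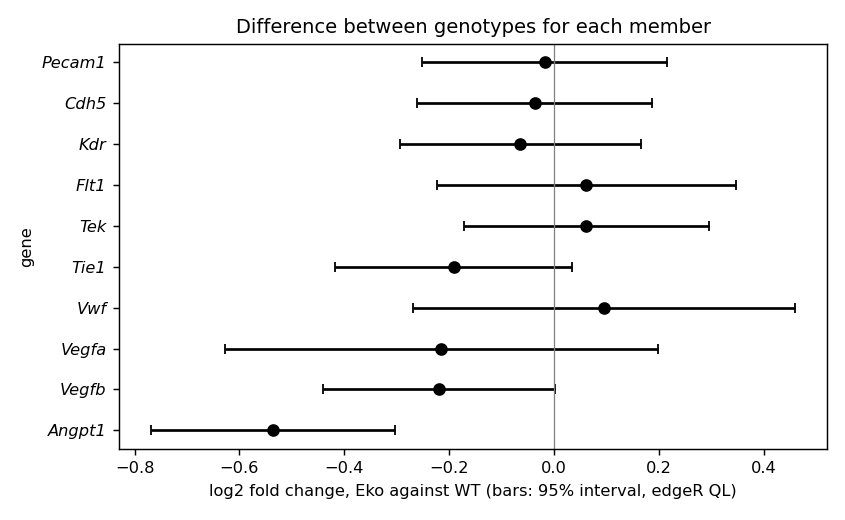
Log2 fold change of each member for Mef2dα2 Eko against WT mice, as points, with the 95% interval from edgeR's quasi-likelihood test, not adjusted for the number of genes, as bars. The intervals of 9 members include 0 and that of Angpt1 runs from -0.77 to -0.30.

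The call on Angpt1 depended on the test. Its adjusted p was 0.00646 with DESeq2, where 2.39% of the genes tested passed, 0.00397 with edgeR's likelihood ratio test, where 1.94% passed, and 9.0e-05 without the filter on low counts, where 3.25% passed. With limma-voom it was 0.120, where 0.354% passed. Leaving out a mouse kept the log2 fold change between -0.62 and -0.44, and the adjusted p was 0.0238 without Mef2dα2 Eko replicate 1 and 0.218 without Mef2dα2 Eko replicate 2. It was 0.171 without WT replicate 1 and 0.0602 without WT replicate 2. Over all genes, 1.22%, 0.745%, 0.591% and 1.79% passed in these fits, in that order. The size of the difference hardly moved between the fits on all 4 mice, from -0.54 to -0.53.

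**Figure D4:**
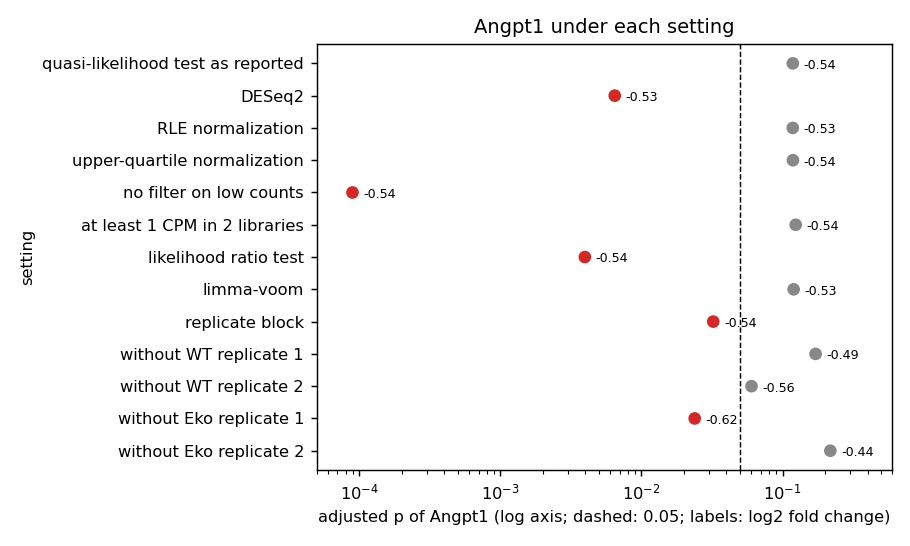
Adjusted p of Angpt1, on a log axis, under the reported fit and each alternative, with its log2 fold change printed beside each point, the 0.05 threshold as a dashed line and passing fits in red. The fold change stays within -0.62 to -0.44, while the adjusted p runs from 9.0e-05 to 0.218.

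The vessel genes differed little between the genotypes on the log2 scale, by -0.01 for the 7 endothelial members and 0.08 for the 10 pericyte genes. Within each mouse, Angpt1 was thus lower relative to them. Its CPM relative to the geometric mean of the 7 endothelial members was 0.602 and 0.604 in WT against 0.487 and 0.360 in Mef2dα2 Eko mice. Relative to the geometric mean of the 10 pericyte genes, a cell type known to make angiopoietin-1, it was 1.86 and 1.77 in WT against 1.29 and 1.07 in Mef2dα2 Eko mice. The genotypes did not overlap in either ratio, which restates the Angpt1 difference and adds no further test. The opposing ligand Angpt2 was scarce in every mouse, at 1.41 and 1.22 CPM in WT and 1.15 and 1.16 CPM in Mef2dα2 Eko mice (log2 fold change -0.19, adjusted p = 0.792), so Angpt1 had between 8.81 and 12.6 times the counts of Angpt2. The gene on the other strand, Gm17473, had 5 to 18 counts per mouse, against 731 to 1250 for Angpt1.

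The summed level of the macrophage genes had the same order of mice as Angpt1. The 8 genes of the list were all above 0, and the sum was 60.3 and 47.7 CPM in WT and 39.5 and 30.6 CPM in Mef2dα2 Eko mice. No gene of the 8 reached an adjusted p under 0.05 with edgeR's quasi-likelihood test, 6 had an unadjusted p below 0.05, all 6 of them lower, and 3 passed with DESeq2 (Lyz2, C1qb and C1qc). The median log2 fold change was -0.66. The lowest was Cd68, a lysosomal protein of macrophages, at -0.77 (adjusted p = 0.419), and the most abundant was the lysozyme gene Lyz2 at -0.73 (adjusted p = 0.120). The adipocyte genes had a median of -1.14, which was -1.94 without Mef2dα2 Eko replicate 1 and -0.52 without WT replicate 1. Their summed level, given above, had the order of Angpt1. Their mean log2 level did not, with Mef2dα2 Eko replicate 1 (0.12) above WT replicate 2 (0.06). Cfd was the most abundant and the lowest (-2.18, adjusted p = 0.162 with edgeR), and Lep was the highest (0.21, adjusted p = 0.937). The 6 fibroblast genes had a median of -0.11, which was -0.24 without Mef2dα2 Eko replicate 1 and 0.06 without Mef2dα2 Eko replicate 2. Col3a1, a fibrillar collagen gene, was the lowest at -0.40, called by DESeq2 (adjusted p = 0.0334) and not by edgeR. Dcn, the most abundant, went the other way (0.14, adjusted p = 0.727 with edgeR), as did Col1a2 (0.04). The part of these cell types in the Angpt1 difference was not tested.

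The other ligands, receptors and co-receptors of the VEGF and angiopoietin families numbered 12, all of them tested. With edgeR's quasi-likelihood test none had an adjusted p below 0.05 or an unadjusted p below 0.05, none passed with DESeq2 (which gave Angpt4 no adjusted p), and their median log2 fold change was 0.01. Nrp1, a VEGF co-receptor, was at 19.9 and 18.4 CPM in WT and at 18.7 and 20.0 CPM in Mef2dα2 Eko mice. The extremes were the scarce ligands Angpt4, at -1.002 (adjusted p = 0.527) and at most 0.264 CPM, and Pgf, which encodes placental growth factor, at 0.76 (adjusted p = 0.526) and at most 0.867 CPM. At these levels the depth gives wide errors, with standard errors of 0.53 and 0.40.

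Capillary endothelium was the list that held a called gene. Of its 12 genes, Rgcc, which encodes a cell cycle regulator and marks capillary endothelial cells, passed in edgeR's quasi-likelihood test. Rgcc, on chromosome 14 from 79288756 to 79301645, was at 26.4 and 31.0 CPM in WT against 16.8 and 13.3 CPM in Mef2dα2 Eko mice. Both Mef2dα2 Eko mice lay well below both WT mice. The log2 fold change was -0.93 (SE 0.13, adjusted p = 0.0484), close to the threshold. It was 0.0511 with limma-voom and 0.0678 when genes needed at least 1 CPM in 2 libraries, and 1.8e-07 with DESeq2. Relative to the 7 endothelial members, Rgcc was 0.970 and 1.21 in WT against 0.697 and 0.469 in Mef2dα2 Eko mice. The level of these members differed by -0.01 on the log2 scale, so this ratio restates the Rgcc difference.

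The other 11 capillary genes did not pass. Aqp1, the water channel of capillary endothelium and red cells, was the most abundant and the highest in log2 fold change, with 183 and 217 CPM in WT and 209 and 247 CPM in Mef2dα2 Eko mice (0.19, adjusted p = 0.573). Cd36, a fatty acid transporter of both endothelium and muscle fibers named here after its values were seen, was at 159 and 145 CPM in WT and at 129 and 124 CPM in Mef2dα2 Eko mice (log2 fold change -0.27, adjusted p = 0.260). The list as a whole had a median log2 fold change of -0.07, which was 0.0085 without Mef2dα2 Eko replicate 1, -0.12 without WT replicate 1 and -0.17 without Mef2dα2 Eko replicate 2. Its level was 106% and 105% in WT against 93.2% and 96.6% in Mef2dα2 Eko mice. Each Mef2dα2 Eko mouse was thus below each WT mouse for this list, which contains Rgcc, and not for the general endothelial lists. The venous, platelet, macrophage and fiber lists had the same placement, so it was not particular to the capillary list. Of the 12 capillary genes, 3 had both Mef2dα2 Eko mice below both WT mice and 1 had both above. Among all genes tested, 23.0% and 20.8% did. No level was taken without Rgcc.

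Genes of other vessel types gave no call. The 11 arterial genes had a median log2 fold change of 0.14, which was -0.03 without WT replicate 1 and 0.04 without WT replicate 2. They lay between Gja5, a gap junction gene (-0.38, adjusted p = 0.633), and Hey1, a Notch target (0.33, adjusted p = 0.760), and Sema3g was the most abundant at 7.47 to 12.0 CPM. No arterial gene had an unadjusted p below 0.05. The 7 venous genes that could be tested had a median of -0.32, which was -0.08 without WT replicate 1, -0.10 without Mef2dα2 Eko replicate 1, and -0.17 whether no gene was filtered or genes needed 1 CPM in 2 libraries. Among them Selp, which encodes P-selectin, was lowest (-0.47, adjusted p = 0.633). The venous regulator Nr2f2, the most abundant and the highest of that list, was at 19.1 and 18.9 CPM in WT and at 23.1 and 23.0 CPM in Mef2dα2 Eko mice (0.28, adjusted p = 0.228). The 7 lymphatic genes had a median of 0.04, which was 0.25 without WT replicate 1 and -0.13 without WT replicate 2. They ran from Lyve1, a hyaluronan receptor (-0.46, adjusted p = 0.331), to Reln (0.62, adjusted p = 0.182), and the lymphatic VEGF receptor Flt4 led in level at 4.57 to 5.51 CPM. Across the arterial, venous and lymphatic lists, 0 genes passed with edgeR's quasi-likelihood test or with DESeq2, and 4 had an unadjusted p below 0.05.

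Among the genes of sprouting, the most abundant was Pdgfb, which encodes a ligand that recruits pericytes, at 17.7 and 17.6 CPM in WT and 14.6 and 16.8 CPM in Mef2dα2 Eko mice (adjusted p = 0.523). The extremes of these 11 genes were Plaur, the urokinase receptor gene (-1.34, adjusted p = 0.241), at most 0.655 CPM, and Esm1, a gene of tip cells (1.60, adjusted p = 0.423), at most 0.510 CPM. Neither passed with edgeR, where 2 of the list had an unadjusted p below 0.05, DESeq2 gave neither an adjusted p, and the list's median was 0.13. The 9 Notch genes had a median of 0.04, between Hey2 (-0.23, adjusted p = 0.875) and Hey1, and Rbpj, the transcription factor of the pathway, was the most abundant at 30.6 to 32.3 CPM.

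Regulators that act on Vegfa did not pass either. The 14 genes had a median log2 fold change of -0.03, and 3 had an unadjusted p below 0.05. Egln1, the main prolyl hydroxylase that marks hypoxia factors for decay, was the most abundant, at 303 and 296 CPM in WT and 272 and 276 CPM in Mef2dα2 Eko mice (-0.13, adjusted p = 0.492). Its relative Egln3, itself induced by hypoxia, was the lowest, at 22.7 and 20.5 CPM in WT and 17.2 and 14.6 CPM in Mef2dα2 Eko mice (-0.44, adjusted p = 0.204), and Tfeb was the highest (0.23, adjusted p = 0.317). Secreted inhibitors of angiogenesis had a median of 0.04 over 10 genes, from Col18a1, the source of endostatin (-0.26, adjusted p = 0.447), to Vash2 (0.52, adjusted p = 0.347), with the metalloproteinase inhibitor Timp3 the most abundant at 152 to 214 CPM. In DESeq2, Egln3 and the matrix protease gene Adamts1, named after its values were seen, passed along with Rgcc.

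**Figure D5:**
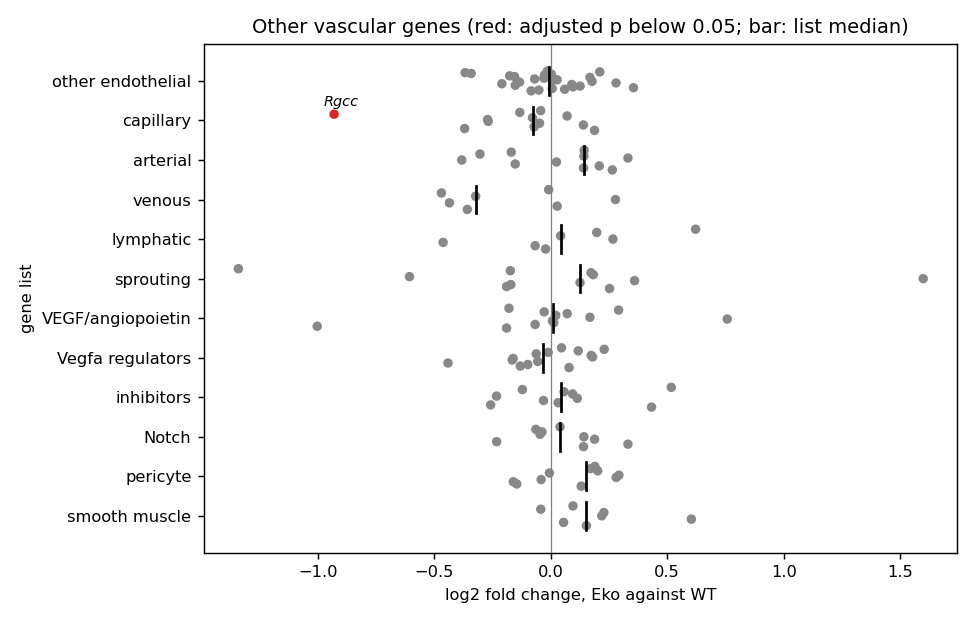
Log2 fold changes for Mef2dα2 Eko against WT mice of the genes of 12 vascular lists, 1 point per tested gene, with a black bar at each list's median and genes with an adjusted p under 0.05 in edgeR's quasi-likelihood test in red. Rgcc, at -0.93 in the capillary list, is the red point, and the list medians lie between -0.32 and 0.15.

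Over the 10 vascular lists without the pericyte and smooth muscle genes, 113 of 114 genes other than the members were tested. Of these, 1 was lower and 0 were higher at an adjusted p below 0.05, beside 0.310% lower and 0.105% higher among all genes tested. At an unadjusted p below 0.05, 8 were lower and 6 were higher, and the median log2 fold change was -0.01. Of the 10 members, 3 had both Mef2dα2 Eko mice below both WT mice and 0 had both above, where 23.0% and 20.8% of all genes did.

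Vegfa is made by the fibers themselves, so fiber genes are given beside the ligands. The 8 fiber genes had a summed level between 117978 and 122647 CPM in all 4 mice, of which Myh4 alone gave 64359 to 69587 CPM. Taken as mean log2 CPM, their level was 104% and 107% in WT against 96.9% and 92.5% in Mef2dα2 Eko mice, without overlap. With edgeR's quasi-likelihood test 0 passed and 3 were lower at an unadjusted p below 0.05. DESeq2 called 3 (Mb, Myh1 and Myh2). Myh2, the myosin of fast oxidative fibers, was lowest, at 1576 and 1709 CPM in WT and at 1264 and 1041 CPM in Mef2dα2 Eko mice (log2 fold change -0.51, adjusted p = 0.161), and Pvalb, a calcium buffer of fast fibers, was highest (0.14, adjusted p = 0.676). When the mean of the fiber genes was taken from the endothelial level of each mouse, the difference between the genotypes became 0.14 on the log2 scale. The fiber mean itself differed by -0.16 and the endothelial level by -0.01. The part of fiber composition in the levels of Vegfa, Vegfb and Angpt1 was not tested.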

How the data were processed

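PolyA RNA of quadriceps was sequenced from 2 WT and 2 Mef2dα2 Eko mice, as paired reads from a stranded kit. The authors aligned the reads to mm10 (GRCm38) and estimated per-gene counts with RSEM from an Ensembl annotation. STAR 2.6.1a is listed in the submitters' processing notes. The deposited expected counts carry no normalization and held 0 values that were not whole, so rounding changed none. The strand setting for counting is not given in the sources used here. RSEM divides reads shared between genes by a model.

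Groups and replicate numbers came from the sample labels. Of 51826 rows, 24621 had counts, and edgeR's default filter kept 16120. In R 4.3.3, edgeR 4.0.16 compared the genotypes by its quasi-likelihood test after TMM scaling, with genotype as the only term, and Benjamini-Hochberg adjustment ran over all genes tested (threshold 0.05). Intervals of 95% use the test's standard error and degrees of freedom. Gene lists are described by counts and medians. In each vascular, pericyte, smooth muscle and fiber list the most abundant gene, both extremes of log2 fold change and any called gene are named. Genes of the lists of other cell types are named in part or not at all. The members and lists were chosen with earlier results of these data known. Alternatives were DESeq2 1.42.0, limma-voom (limma 3.58.1), the likelihood ratio test, RLE and upper-quartile scaling, no filter, at least 1 CPM in 2 libraries, a replicate block, other ways of taking the endothelial level, and leaving out each mouse. A level of 3 counts, the smallest taken as shown by a library, was 0.0348 to 0.0419 CPM and covers counting error only. The fit was tested on simulated data for this comparison, where 186 of 200 changed genes and 33 unchanged genes were called among 15862. The false calls were a larger share of all calls than the threshold of 0.05, so calls close to the threshold, such as Rgcc, are less certain. Positions and exon lengths came from GENCODE release M21 on GRCm38, which is not the release the authors used, and promoters from RefSeq (GRCm38.p6).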

Additional observations from a re-analysis of the deposited data

How the results depend on the processing

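The number of genes called over all genes moved from 67 to 318 with DESeq2, 312 with the likelihood ratio test, 799 when no gene was filtered and 23 when genes needed 1 CPM in 2 libraries, and ran from 99 to 299 with each mouse left out. The replicate numbers pair no litters in the labels, and the deviations of same-numbered mice correlated by 0.09 across genes. With the replicate number as a block, 186 genes were called and Angpt1 passed (log2 fold change -0.54, adjusted p = 0.0322).

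Angpt1 passed in 5 of 12 alternatives, with log2 fold changes of -0.53 with DESeq2 and -0.54 with the likelihood ratio test and without the filter, and -0.62 to -0.44 with a mouse left out. Rgcc passed in 10 of 12. Called genes among the 113 other vascular genes numbered 3 with DESeq2, 5 with the likelihood ratio test, 7 without the filter, 3 with the block, and 0 with limma-voom and with at least 1 CPM in 2 libraries, and 1 to 2 with a mouse left out, against 1 as reported. The other 9 members passed under none of the alternatives. With a mouse left out, log2 fold changes crossed 0 for Pecam1 (-0.14 to 0.11), Cdh5 (-0.15 to 0.084), Kdr (-0.15 to 0.038), Flt1 (-0.10 to 0.22), Tek (-0.022 to 0.16) and Vwf (-0.10 to 0.28), and the difference in endothelial level ran from -0.13 to 0.10. In such fits the lone mouse is assumed to vary like the other genotype. The difference in endothelial level was 0.14 relative to fiber genes and -0.10 to -0.01 under the other 7 ways of taking it. With a mouse left out, list medians also crossed 0 for the other endothelial genes (-0.05 to 0.09), the other VEGF and angiopoietin genes (-0.09 to 0.09), the Vegfa regulators (-0.06 to 0.07) and the inhibitors (-0.03 to 0.03), and stayed above 0 for the pericyte (0.07 to 0.14), smooth muscle (0.13 to 0.32), sprouting (0.04 to 0.09) and Notch genes (0.05 to 0.12). In genes under 1 CPM, such as Esm1, Plaur, Pgf and Angpt4, depth limits the comparison.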
